A study of Mus musculus with 2 samples.

Results

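The SOCS family of cytokine feedback inhibitors has 8 genes in the mouse, Socs1 to Socs7 and Cish, and their surroundings were examined for open chromatin in T-helper 1 cells. All regions of both deposited lists were taken that overlapped the body of a member gene or the 50 kb on either side of it, in the GENCODE M21 annotation of mm10. They came to 128 of 98786 regions in replicate 1 and 117 of 91403 in replicate 2. Regions of both replicates that overlapped by at least 1 bp were joined into 111 shared regions, of 84380 in the whole genome.

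The material was T-helper 1 primary cells, interferon-γ-secreting CD4 T cells, of C57BL/6NJ mice, assayed by ATAC-seq, in which a transposase marks accessible DNA. There was 1 group with 2 replicates and no treated or mutant group, and the labels give both replicates the same donor identifier, an unknown age and a sex that was not collected. Nothing says that the replicates came from separate animals, so the spread between them may be technical. With 1 group there is nothing to test between conditions, and every value below is a description with the values of both replicates.

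SOCS proteins close a feedback loop. A cytokine receptor activates Janus kinases, the kinases phosphorylate STAT factors, and the STAT factors switch on SOCS genes whose products shut the receptor down. Each member joins an SH2 domain, which binds phosphorylated tyrosine, to a SOCS box, which recruits a ubiquitin ligase of elongins and a cullin. Cish and Socs2 are classical targets of STAT5 after interleukin-2 or growth hormone, Socs1 is induced by interferons, and Socs3 by cytokines that use STAT3. Socs4 to Socs7 are linked more to growth factor and insulin receptors. STAT dimers bind the GAS sequence TTCNNNGAA, and the interferon-activated complexes bind the ISRE, searched here as GAAA, any 2 bases and GAAA. N is any base, and both strands were read.

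The promoters of Socs2 and Cish carried GAS sequences in closely spaced pairs inside open regions shared by both replicates. Stretches of 30 bases are shown because the same arrangement, a GAS, 2 bases and a second GAS, stood at Socs2 and in the Cish upstream pair. The Cish downstream pair, also shown, is more widely spaced, with its GAS starts 17 bp apart instead of 11. The Socs2 site is at chr10:95416899-95416928 on the minus strand, and the Cish sites are at chr9:107296654-107296683 and chr9:107296762-107296791 on the plus strand. The Cish stretches lie 0.64 and 0.75 kb downstream of the start used here, and are called upstream and downstream by their order. Both lie in sequence annotated as untranslated in at least 1 transcript of the gene. The Socs2 stretch lies 0.06 kb upstream of the start used here. A further Socs2 pair, 35.55 kb downstream of that start with its GAS starts 13 bp apart, lies in a shared region and is not shown. The bases are those of the GRCm38.p6 reference, written 5′ to 3′ along the gene, with each GAS in capitals.
Socs2 pair: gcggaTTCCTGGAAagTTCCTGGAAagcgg
Cish upstream pair: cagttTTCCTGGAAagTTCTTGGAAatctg
Cish downstream pair: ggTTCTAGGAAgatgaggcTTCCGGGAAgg

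In Cish the 4 GAS matches of these pairs fell in the summit window, which runs 100 bp to either side of the point of strongest signal in replicate 1, with centres at −50, −39, 55 and 72 bp from that point. A further GAS of the region lay outside the window, at −1183 bp. The summit stood 3 bp from an annotated Cish transcript start, 0.7 kb downstream of the start used here. Of all 84380 shared regions this was the 1 region (0.00119%) with 4 GAS matches in its summit window, and 10 regions (0.012%) had 3 or more. The Socs2 promoter had 2 matches in its summit window, as did a region 13.3 kb downstream of the Socs1 start, against 368 regions (0.436%) with at least 2. The wider comparison over upstream DNA gave the same 2 matches at Socs2, since the 250 bp before its start held GAS sequences at −66 and −55 bp, and 74 of 21906 protein-coding genes (0.338%) held at least 2 there. The 250 bp upstream of the start used for Cish held no GAS. The numbers of matches per summit window and per upstream stretch were not among the planned results and have no test. These counts describe letters, and binding of a STAT factor was not measured.

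Upstream of Socs1 the sequence found was the ISRE and not the GAS. The 250 bp upstream of its start, chr16:10785537-10785786 on the minus strand, held 2 overlapping ISRE matches that began at −83 and −77 bp, and 61 of 21906 genes (0.278%) held at least 2 in the same stretch. The stretch lies inside the shared promoter region and outside annotated exons, and the summit of that region lies on the other side of the start, so its window held neither motif. A GAS stood further upstream in the same region, at −0.45 kb. It is printed with the stretch of the same length upstream of Socs2, chr10:95416858-95417107 on the minus strand, so that the ISRE (Socs1) and GAS (Socs2) matches, in capitals, can be seen at their distance from the start, which follows the last base.
Socs1 upstream: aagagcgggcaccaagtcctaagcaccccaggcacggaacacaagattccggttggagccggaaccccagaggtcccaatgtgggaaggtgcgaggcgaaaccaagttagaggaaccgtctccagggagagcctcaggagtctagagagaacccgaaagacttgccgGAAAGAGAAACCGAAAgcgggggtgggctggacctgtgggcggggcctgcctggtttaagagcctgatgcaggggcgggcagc
Socs2 upstream: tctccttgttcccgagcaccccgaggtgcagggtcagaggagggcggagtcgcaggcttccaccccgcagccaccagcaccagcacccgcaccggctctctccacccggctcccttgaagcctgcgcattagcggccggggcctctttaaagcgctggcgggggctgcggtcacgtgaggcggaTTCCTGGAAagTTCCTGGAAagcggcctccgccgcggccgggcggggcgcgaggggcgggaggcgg

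In the 250 bp upstream of Socs3 a single GAS was found, at −61 bp, and 1561 of 21906 genes (7.13%) held at least 1 in that stretch. It sits at chr11:117969229-117969258 on the minus strand, inside the shared promoter region but 112 bp from the summit and so outside the summit window. The spacing to the start is close to that in Socs2, but no second GAS stood beside it. A further GAS lay in the same promoter region at −0.33 kb.
Socs3 upstream site: cggccgggcagTTCCAGGAAtcggggggcg

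All 8 members had an open promoter, meaning that a shared region lay no more than 1 kb from one of their annotated starts, against 65.9% of the 21938 protein-coding genes (14452 genes). The signal, a value of the authors' caller whose reference is not stated, was taken from the strongest of these regions in each gene. The signals ran from 4.97 to 14.8. By role, the cytokine-induced genes Cish, Socs1, Socs2 and Socs3 had signals of 4.97 to 8.74, and Socs4 to Socs7 had 9.74 to 14.8, with no overlap between these sets in either replicate. Weaker regions at starts of Cish, with 2.06 and 2.07, and of Socs6, with 6.37 and 4.45, were left out of these ranges. The split by role was not among the planned results. The median over all open protein-coding promoters was 11.3 in replicate 1 and 11.1 in replicate 2, above all 4 cytokine-induced members.

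Cish, which encodes the inhibitor CIS of the interleukin-2 receptor, had a promoter signal of 5.19 in replicate 1 and 5.11 in replicate 2, at percentile 9.2 of open promoters as a mean of the replicates. Socs1, an inhibitor of Janus kinases in interferon-γ signalling, had 5.12 and 4.97, at percentile 8.7. These were the lowest of the family, and both replicates placed them together. Socs3, which inhibits receptors of the gp130 family, had 7.39 and 7.48, at percentile 21.4. Socs2, best known as the brake on growth hormone signalling, had 8.39 and 8.74, at percentile 29. Both replicates gave the same order of these 4 genes, but the values of Cish and Socs1 overlapped between replicates and do not separate.

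Among the other members Socs4 had the highest promoter signal, 14.8 and 14.1, at percentile 79.3. Its promoter region also covers starts of Wdhd1 and the predicted gene Gm49150, so the value cannot be given to Socs4 alone. Socs6 had 13.98 and 13.0 at its main start. A further Socs6 start had a weaker shared region with 6.37 and 4.45, and a start upstream of the main one had a region in replicate 1 only, with 6.51. Socs5 had 12.2 and 11.4, and Socs7 had 10.1 and 9.74. Both replicates gave the order Socs4, Socs6, Socs5, Socs7, with no overlap between neighbours, but Socs4 and Socs6 were about as far apart as the replicates of each gene.

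The ranking changed when the significance that the caller gave was used instead of the signal. By −log10 q, the negative logarithm of the caller's adjusted p, the Socs1 promoter had 406 and 343 and stood at percentiles 80.7 and 80.6, where its signal had stood at 8.7. Cish had 293 and 263, at percentiles 64.4 and 67.3. Socs3 had 444 and 379, at percentiles 84.8 and 85, and Socs2 285 and 269, at percentiles 62.8 and 68.3. The median percentile of the 8 members was 33.9 by signal and 73.3 by −log10 q. Socs6 went the other way, from 70.7 by signal to 50.3 and 49.1 by −log10 q. The sets by role overlapped in this measure. In replicate 1 the cytokine-induced genes ran from 285 to 444 and Socs4 to Socs7 from 219 to 453.

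**Figure D1:**
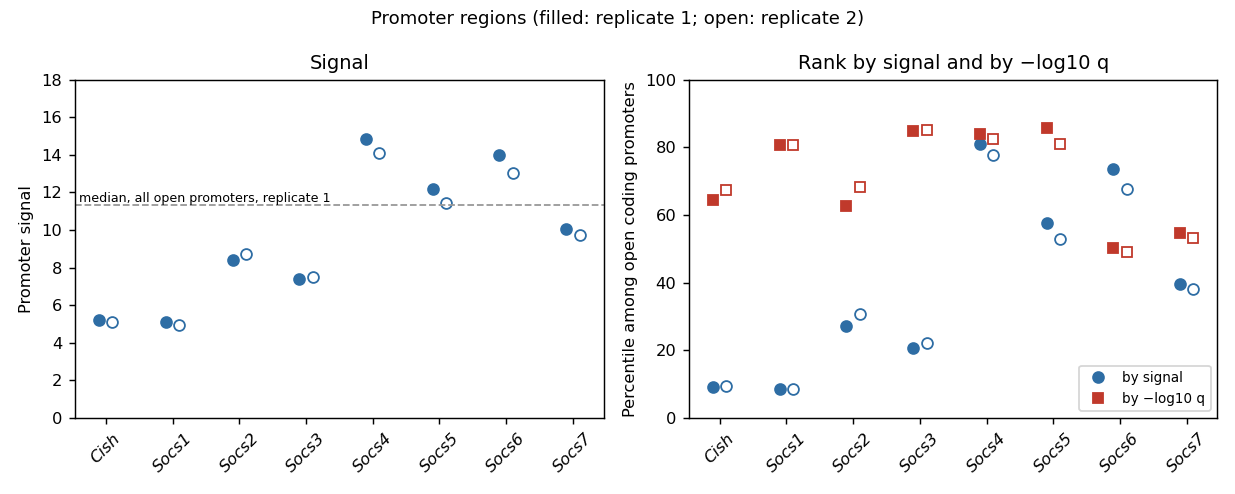
Left, promoter signal (caller's value, no unit) of each member in replicate 1 (filled) and replicate 2 (open). The dashed line is the replicate 1 median of all open promoters. Right, percentile of each promoter among open protein-coding promoters by signal (blue circles) and by −log10 q (red squares); Cish, Socs1, Socs2 and Socs3 lie under percentile 31 by signal and above percentile 62 by −log10 q.

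The promoter regions of 7 of the 8 members were wider than the median open promoter, and 7 had a higher GC content. The median width over all 8 was 2121 bp, against 1323 bp for all open promoters, and that of Socs2 was the widest at 3659 bp and that of Socs6 the narrowest at 1281 bp. The median GC content of the summit window was 71.4%, against 64.2%. Cish was the lowest of the family at 58.2% and Socs7 the highest at 82.6%.

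Cytokine-induced members also differed in how many open regions surrounded them. Socs3 (chr11:117966079-117970047, minus strand) had 22 shared regions in its window, or 21.2 per 100 kb, at percentile 99.9 of protein-coding genes by this density. Socs1 (chr16:10782240-10785536, minus strand) had 19, or 18.4 per 100 kb, at percentile 99.5. Cish (chr9:107296026-107302784, plus strand) had 17, or 15.9 per 100 kb, at percentile 97.7. Socs2 (chr10:95385362-95417180, minus strand) had 7, or 5.3 per 100 kb, under the median gene at 6.6. The high density was therefore found around 3 of the 4 cytokine-induced genes and not around Socs2. The member was the nearest protein-coding start for 11 of the 22 regions at Socs3, 10 of 19 at Socs1 and 7 of 17 at Cish.

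Socs7 (chr11:97362551-97398542, plus strand) had 17 shared regions, 12.5 per 100 kb, at percentile 89.2, and none in a single replicate. Socs4 (chr14:47276931-47296102, plus strand) had 11, or 9.2 per 100 kb, at percentile 69.9. Socs5 (chr17:87107679-87137839, plus strand) had 8, or 6.1 per 100 kb, all shared. Socs6 (chr18:88665224-88927481, minus strand), the longest gene of the family at 262.3 kb, had 10, or 2.8 per 100 kb, at percentile 27.5. These windows hold other genes too. Of the 111 shared regions 53 (47.7%) had the member as the nearest protein-coding start, from 8 of 8 at Socs5 to 1 of 11 at Socs4 and 1 of 17 at Socs7.

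**Figure D2:**
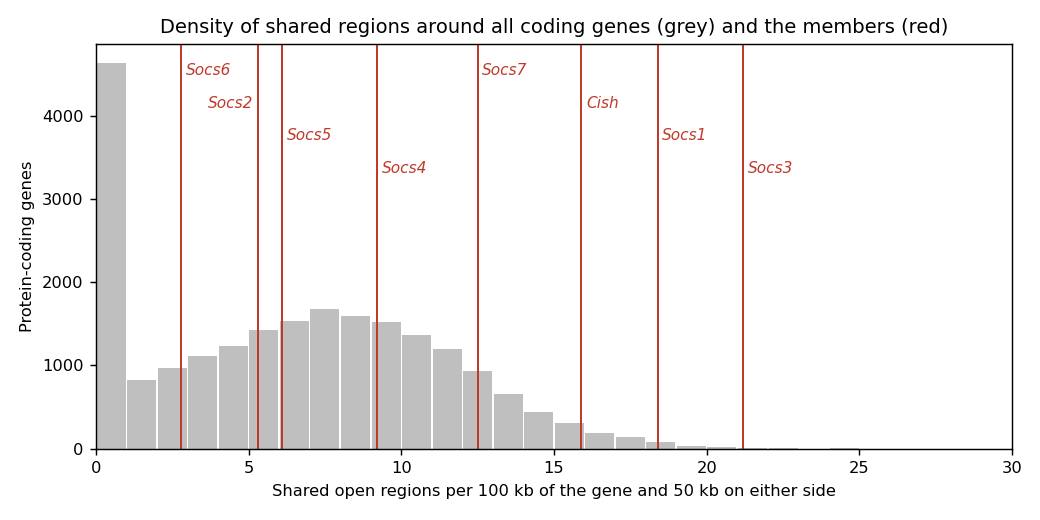
Number of protein-coding genes (vertical axis) by shared open regions per 100 kb of the gene and 50 kb on either side (horizontal axis), with each member as a red line. Cish, Socs1 and Socs3 lie beyond the 95th percentile of 14.3 per 100 kb, and Socs6 at 2.8 is the lowest member.

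Low promoter signal went with a dense surrounding in all genes, not in the family alone. Open promoters in the densest surroundings, percentile 95 and above, had a median signal percentile of 28.7 (1013 genes), against 50.1 over all 14452 open promoters. By −log10 q the same 1013 genes stood at 44.7. The part of this relation in the values of Cish, Socs1 and Socs3 was not tested.

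**Figure D3:**
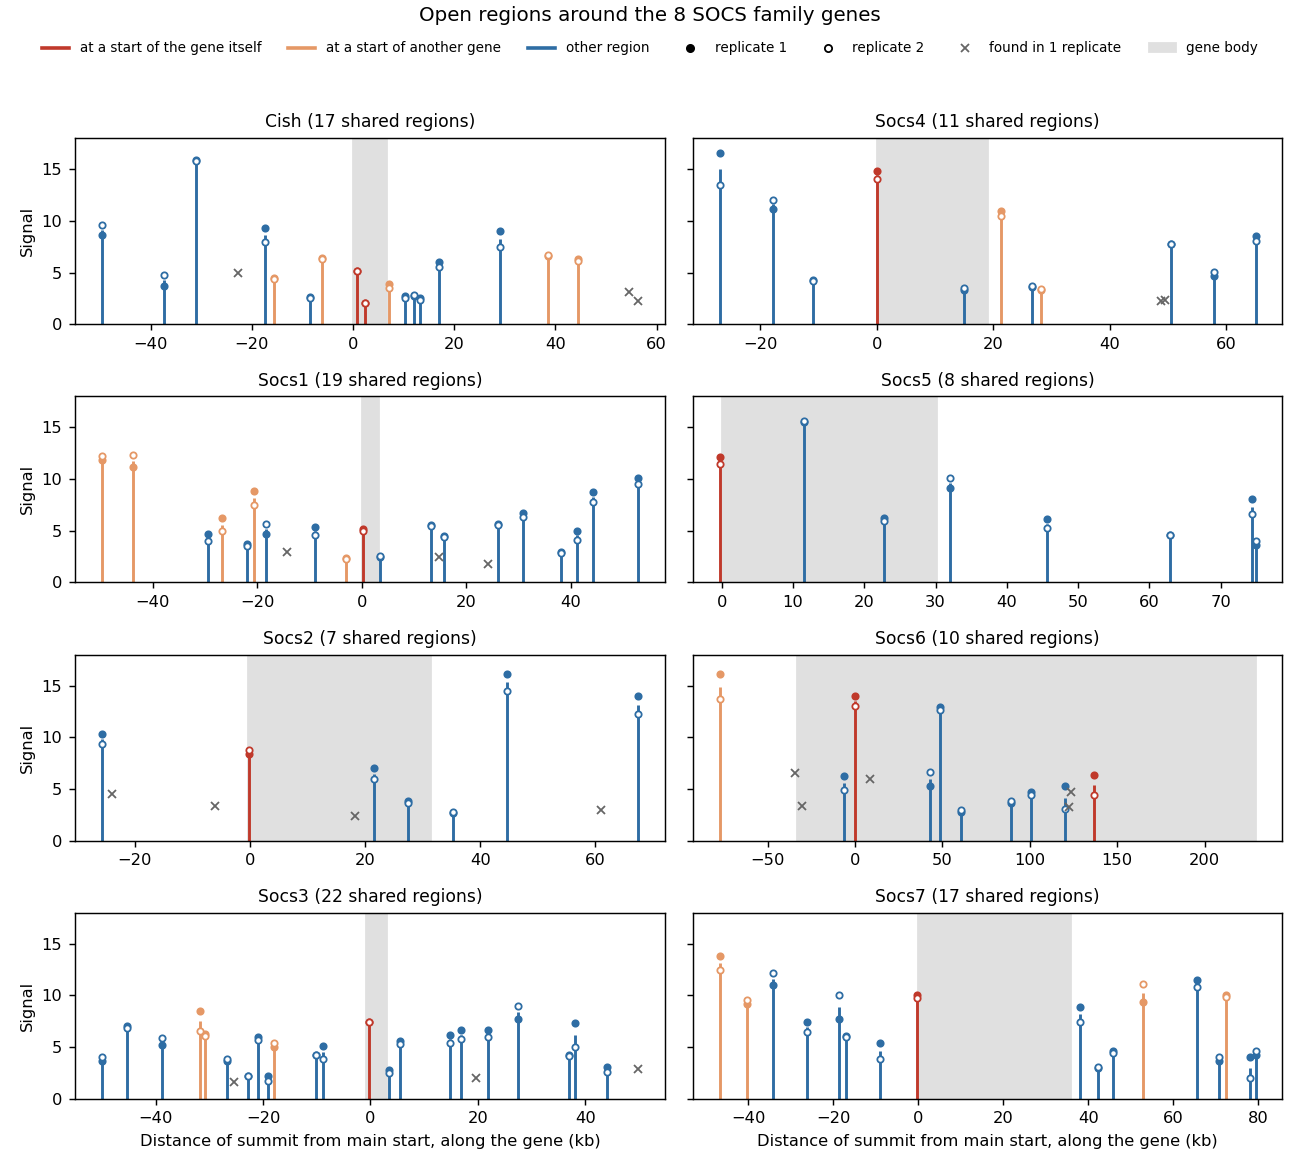
Signal (caller's value) of each shared region in replicate 1 (filled) and replicate 2 (open), one panel per member. The horizontal axis is the distance of the region's summit from the main start along the gene in kb. Lines end at the mean of both replicates, crosses are regions of 1 replicate and grey marks the gene body. Socs3 has the most shared regions, 22, and Socs5 has none upstream of its promoter.

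Regions outside promoters are described by the mean signal of both replicates, and distances are given from the main start with minus for upstream. Around Cish the highest signal, 15.9 in replicate 1 and 15.8 in replicate 2, lay at −31.1 kb in an intron of the neighbour Mapkapk3 (chr9:107264667-107265293), well above the 5.19 and 5.11 of the Cish promoter. The order was reversed by −log10 q, with 204 and 177 there and 293 and 263 at the promoter. Next by signal were an intergenic region at −49.6 kb with 8.61 and 9.59 and a Mapkapk3 intronic one at −17.3 kb with 9.31 and 7.96. A weaker second region at Cish starts, at 2.3 kb, had 2.06 and 2.07. Downstream of Cish a row of 5 intergenic regions at 10.2, 12.1, 13.3, 17 and 29 kb had signals from 2.37 to 9.04. The region at 17 kb (chr9:107312314-107313530) had a −log10 q of 296 and 231, close to those of the promoter, and a GAS centred at −21 bp from its summit, shown with the GAS in capitals.
Cish region at 17 kb: gcacagtcagTTCCCAGAAatgaaggtacc

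Around Socs1 the strongest regions outside promoters lay downstream in the neighbour Clec16a, at 52.8 kb with signals of 10.1 and 9.49 (chr16:10732052-10733099) and at 44.2 kb with 8.78 and 7.75 (chr16:10740935-10741626). Both held an ISRE in the summit window. The third of the strongest, an intergenic region at 30.8 kb with 6.74 and 6.31, held none. Further ISRE matches stood in regions at 15.7, −18.3, −20.7 and −26.8 kb, which makes 6 of the 19 shared regions around Socs1, where 4.99% of all shared regions held one. Only 9 of 21938 protein-coding genes (0.0410%) had 6 or more such regions in their window, which is 9 of the 1504 genes (0.598%) with at least as many shared regions as Socs1. The other 8 of these genes had 37 or more shared regions each, so Socs1 reached this count with the fewest regions. It was singled out after its values were seen, and has no test. Sites from 3 of these regions are shown along the Socs1 strand with the ISRE in capitals, at chr16:10741333-10741362, chr16:10769869-10769898 and chr16:10803742-10803771. They are the matches that read GAAAGTGAAA. The other matches in the 6 regions, not shown, read GAAACTGAAA, GAAAATGAAA or GAAAGAGAAA.
Socs1 region at 44.2 kb: cctgaatactGAAAGTGAAAcctggtctgg
Socs1 region at 15.7 kb: gagctaagcaGAAAGTGAAAgggacctggg
Socs1 region at −18.3 kb: ctgggaaggcGAAAGTGAAAgagtggggat

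A separate Socs1 region, 13.3 kb downstream (chr16:10771840-10772790), held the GAS matches counted above, at chr16:10772329-10772358 and chr16:10772354-10772383. Its signals of 5.53 and 5.50 exceeded those of the Socs1 promoter in both replicates. Its −log10 q of 189 and 165 lay below the promoter's 406 and 343. It also held a T-box sequence, TCACACC, the kind bound by the Th1 factor T-bet.
Socs1 GAS at 13.19 kb: ttgagtctgagTTCCAGGAAgcgataacgc
Socs1 GAS at 13.17 kb: aaccggtcttcTTCGGGGAAgtctcttgag

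Of the 6 regions around Socs2 outside its promoter, 3 had signals of 9.38 to 16.2 and 3 had signals of 2.63 to 7.04. The intergenic region at 44.7 kb (chr10:95371763-95372609), beyond the end of the gene, had signals of 16.2 and 14.5 and −log10 q of 380 and 295, above its promoter in both measures. A region at 67.4 kb in an intron of 2310039L15Rik had 13.99 and 12.2, and one at −25.7 kb had 10.3 and 9.38. Of the regions outside the Socs2 promoter, none of these 3 held a GAS in the summit window.

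Around Socs3 many regions were open, and none outside promoters was above 9.03. By the mean of both replicates, the highest signals outside promoters were 7.74 and 9.03 at 27.5 kb, 7.003 and 6.81 at −45.4 kb in Pgs1, and 6.64 and 5.96 at 21.9 kb. These values lie near the promoter's own 7.39 and 7.48. Among these 3 regions the highest −log10 q was 103 and 83.0, at −45.4 kb, against 444 and 379 at the promoter. Of all Socs3 regions outside promoters, the one at −21 kb had the highest, 181 and 146. A GAS was present in the summit window of 3 of the 22 regions, at 21.9, 3.4 and −21 kb, and an AP-1 sequence, TGANTCA, in each of these 3.

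For Socs4 the strongest regions lay upstream in introns of Wdhd1, at −27 kb with 16.5 and 13.5 and at −17.8 kb, with an ISRE, with 11.2 and 11.99. An intergenic region at 65.1 kb had 8.57 and 8.04. Socs5 had its strongest region inside the gene, 11.5 kb from the start in an intron (chr17:87118690-87119631), with 15.6 in both replicates, above its promoter at 12.2 and 11.4. The −log10 q of that region, 256 and 210, lay below the promoter's 453 and 347. Intergenic regions followed at 32 kb with 9.14 and 10.1 and at 74.4 kb with 8.03 and 6.60. Socs6 also had an intronic region of 12.9 and 12.7 at 48.6 kb (chr18:88845526-88846153), which held a GAS. Its other regions outside promoters were at 6.60 or less, led by those at 42.7 kb with 5.26 and 6.60 and at −6 kb with 6.23 and 4.91. Around Socs7 the highest values outside promoters, 11.02 and 12.1 at −34.2 kb and 11.5 and 10.8 at 65.7 kb, lay in the neighbours Mrpl45 and Arhgap23, and the next, at −18.7 kb in Gpr179, had 7.71 and 10.04. By −log10 q the strongest region stayed the same for Socs2, Socs4, Socs5 and Socs6, and moved for the other 4. For Cish the replicates differed by this measure, since a Mapkapk3 intronic region at −17.3 kb had 315 and 230 and the region at 17 kb had 296 and 231.

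Over all 111 regions the motif shares lay near those of the genome. A GAS was present in 9 (8.1%, exact 95% binomial interval 3.8 to 14.8) against 7.99% of all shared regions. With 20 kb flanks it was 12.7% of 63 regions and in gene bodies 12.5% of 24, both within the interval of all 111. The longer spacing preferred by STAT6, TTC and GAA with 4 bases between them, was present in 3 (2.7%) against 4.68%. The ISRE was present in 7 (6.3%) against 4.99%, of which 6 were at Socs1 and 1 at Socs4. The T-box sequence was present in 7 (6.3%, interval 2.6 to 12.6) against 4.62%. The ETS sequence GGAAGT, which can overlap a GAS, was present in 26 (23.4%) against 19.9%, and the RUNX sequence TGTGGT in 27 (24.3%) against 22.8%. AP-1 was present in 19 (17.1%, interval 10.6 to 25.4) against 26.0%, which lies just above that interval, and in 0 of the 17 regions around Socs7. The intervals treat regions as independent and cover counting error only.

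**Figure D4:**
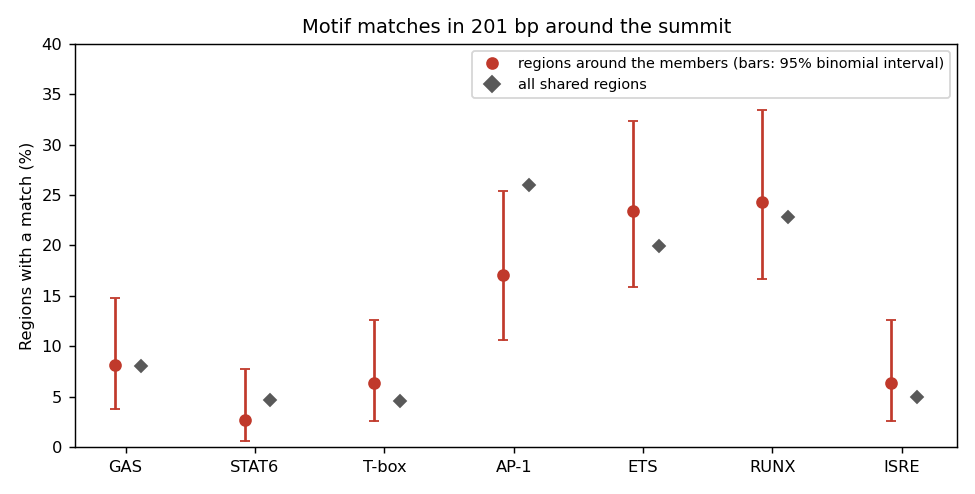
Percent of regions with a motif in the summit window (vertical axis) for the 111 regions around the members (red, bars are exact 95% binomial intervals) and for all 84380 shared regions (grey diamonds), for 7 motifs. The genome-wide share lies inside the interval for 6 motifs and above it for AP-1.

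Of the 7 regions with a T-box sequence 4 were around Cish, at 7.2, 13.3, 29 and 38.5 kb, all downstream of the gene, and the last lies at a start of Hemk1. A total of 77 of 21938 genes (0.351%) had 4 or more such regions in their window, and 65 of the 2453 genes with at least 17 shared regions (2.65%) did. For GAS the count of 3 regions around Cish, and of 3 around Socs3, was reached by 1069 genes (4.87%). Among genes with at least as many shared regions it was reached by 610 of 2453 (24.9%) for Cish and by 354 of 786 for Socs3. The third Cish region with a GAS, beside the promoter and the region at 17 kb, was the one at 38.5 kb, with signals of 6.64 and 6.67.

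The replicates overlapped around the family about as often as elsewhere. Of the 128 regions in replicate 1, 89.1% overlapped one of replicate 2, against 86.6% over the genome, and of the 117 in replicate 2, 94.9% did, against 93.0%. The 14 regions of replicate 1 alone had signals of 1.62 to 6.51 and the 6 of replicate 2 alone 2.36 to 4.91. Signals of a shared region differed by a median factor of 1.07, and 2 of the 111 differed by 1.5 or more. These were a Socs6 intronic region at 120.1 kb with 5.26 and 3.07, and one at 78 kb from Socs7 in Arhgap23 with 4.02 and 1.98. The median signal was 6.07 and 5.50, under the 6.92 and 6.72 of all shared regions.

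**Figure D5:**
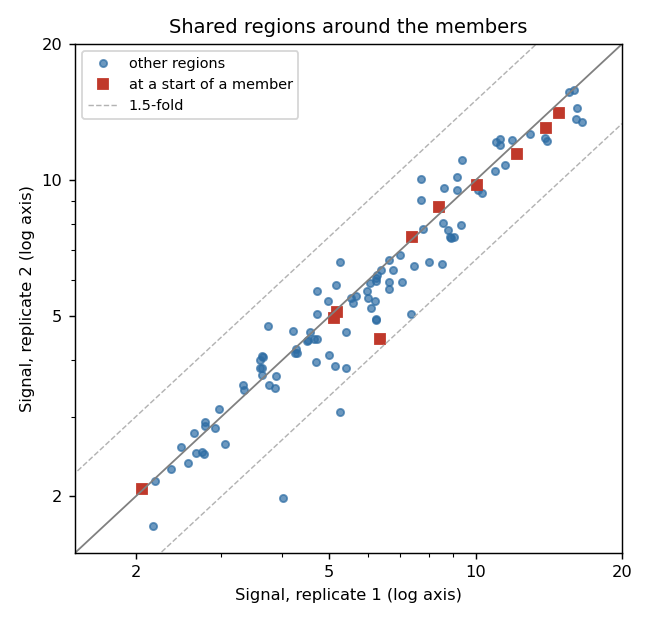
Signal of the 111 shared regions in replicate 1 (horizontal) and replicate 2 (vertical), both on log axes, with regions at a member's own start as red squares and dashed lines at a factor of 1.5. Of the points 2 lie outside the dashed lines, both higher in replicate 1.

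Most genes listed for the JAK-STAT pathway and its STAT5 targets had open promoters, and the lists were chosen with earlier results of these data known. Of 58 analysed genes other than the members 55 (94.8%) had an open promoter, against the 65.9% of all genes. All 4 Janus kinases and the 6 STAT factors analysed were open, with Jak1 highest among the kinases at percentile 58.4 by signal and Tyk2 lowest at 28.1. Stat2, a part of the interferon-activated complex that binds the ISRE, stood at 94.5, and Stat4, the interleukin-12-activated factor of Th1 cells, at 7.2. The 19 cytokine receptor genes of T cells were all open, from Il21r at 3.2 to Ifnar1 at 71.9, with a median of 16.7, all by signal.

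The 3 analysed pathway genes without an open promoter were Lepr, Csf3r and Csf2rb, receptors for leptin and myeloid growth factors, all from the list of receptors of other tissues. In that list Epor, Ghr, Prlr and Lifr were open, from Lifr at 13.3 to Ghr at 59.3. Percentiles of these lists are by signal unless stated. The 6 genes of the ubiquitin ligase that the SOCS box recruits were all open, from Elob at 52.6 to Rnf7 at 91.7, with a median of 66.4. The other 11 inhibitors of the pathway were open as well, from the phosphatase gene Ptprc at 9.3 to Ptpn2 at 74.1. A list of 8 known STAT5 targets, which includes Cish and Socs2, was all open at a low median percentile of 12.5 by signal. Its other members included Ccnd2 at 4.0, Pim1 at 7.2 and Pim2 at 39. Ranked by −log10 q, the percentiles of this list were higher, from 24.8 for Osm to 77.9 for Il2ra.

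The cell type of the labels was checked by markers. All 5 T cell genes (Cd3d, Cd3e, Cd3g, Cd4 and Lck) and all 4 Th1 genes (Tbx21, Ifng, Cxcr3 and Il12rb2) had open promoters. None of 3 B cell, 3 myeloid and 2 hepatocyte markers did, though Lyz2 had a region in replicate 1, and of 2 neuronal markers Rbfox3 was open. Over all protein-coding genes 65.9% had an open promoter. By signal the T cell genes ran from percentile 0.3 for Cd4 to 39.4 for Lck. The Th1 genes ran from 2.1 for Cxcr3 to 18.1 for Ifng, and Rbfox3 stood at 16.2. Read depth is unknown, since the lists hold no read counts. Whether a sequence match was bound, and whether a region acts on the member in its window, was not measured.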

How the data were processed

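Open chromatin was profiled by ATAC-seq, per the labels, and each replicate has its own list of regions on mm10. The names of the aligner and caller are not given in any source used here. Column 7 of the deposited lists is the caller's signal, whose reference is not stated, and columns 8 and 9 are the deposited −log10 p and −log10 q values (smallest −log10 q 1.01 and 1.00). The deposited score of column 5 is capped and was not used. The region names carry the words ASTARR and insert, whose meaning is not stated, so the assay follows the labels.

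Regions on chromosomes 1 to 19, X and Y were used with GENCODE M21 and the RefSeq sequence of GRCm38.p6, the build of mm10. A shared region joins overlapping regions of both lists and takes the strongest value of each. The main start is that of the transcript numbered 201 in the annotation. Percentiles are among protein-coding genes, for signal among those with an open promoter. Motif letters were sought on either strand from 100 bp before to 100 bp after the replicate 1 summit. Only the GAS pattern was tried on simulated sequences. These were drawn from C and A, where a false match could not arise, so false matches were not tested. Python 3.11.15, numpy 2.4.6 and scipy 1.17.1 were used. The depth is unknown and no test between groups was possible. The members, gene lists and motifs were chosen with earlier results of these data known. Named were every member, its 3 strongest regions outside promoters, by mean signal, regions with a GAS in the summit window, and of each pathway list the highest and lowest promoter and those not open; others (Pim1, Epor, Prlr, regions with an ISRE, the regions downstream of Cish, single T-box regions) were named after their values were seen. Counts of motif-bearing regions per gene window were added after the values were seen. Counts of GAS matches per summit window and of motif matches in the 250 bp upstream were not among the planned results. Some list genes are not reported here and are in no list count. No sequence of chromosome 18 is shown.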

Additional observations from a re-analysis of the deposited data

How the results depend on the processing

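The 8 open promoters of the family and the 55 open pathway promoters were found under all alternatives run for them: 50% reciprocal overlap, a −log10 q of at least 5, either replicate alone, starts within 500 bp, and coding transcript starts. The background moved between 64.4% and 67% of genes. The 111 shared regions fell to 63 with 20 kb flanks and to 24 with the gene body alone, by construction of the smaller windows, and the share nearest to the member was then 61.9% and 95.8% instead of 47.7%. The median promoter percentile of 33.9 was 34.5 to 35.1 with either replicate left out, 35 with coding starts and 73.3 when ranked by −log10 q; the cause of the last was not tested. The strongest region outside promoters was the same for 4 of 8 members by −log10 q. The GAS share of 8.1%, against 7.99% of all shared regions, was 12.7% with 20 kb flanks and 12.5% in gene bodies, 2.7% against 3.97% in a narrower summit window, and became 25.2% when whole regions were searched, where all shared regions had 24.71%. The T-box share of 6.3%, against 4.62%, was 0.9% against 2.69% in the narrower window and 4.5% against 4.59% with replicate 2 summits. It was 8.3% against 4.62% in gene bodies and 16.2% against 13.9% in whole regions. The density percentile, recomputed in ways added after seeing the data, stayed above 94 for Cish, Socs1 and Socs3 with 20 kb flanks, outside promoters and in either replicate. No paired analysis was possible because there is 1 group.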
